A study of Mus musculus with 6 samples.

Results

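Ubiquitin-conjugating enzymes (E2s) carry activated ubiquitin, or a ubiquitin-like protein, from an activating enzyme (E1) to a substrate that a ligase (E3) holds. The E2 often sets the outcome, since some E2s place the first ubiquitin, others extend a chain that sends the substrate to the proteasome, and others build chains used in DNA repair and signalling. The genes described here are those with a platform symbol starting with Ube2. Of 18193 genes named by a probe set with exactly 1 gene symbol, 32 met this rule, after 1 gene of the family that the rule leaves out. Each is represented by its brightest probe set, the 1 whose log2 signals averaged highest over the 6 arrays. At 0 h, 29 of the 32 lay at or above the median signal of all probe sets, which was 72.9, and 11062 of all named genes did so. Not every one is an active E2. Ube2v1 and Ube2v2 encode E2 variants without the catalytic cysteine, Ube2cbp encodes a binding partner of an E2, and Ube2d-ps is a pseudogene.

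The arrays compared primary mouse embryonic fibroblasts (MEFs) depleted of CNOT3, a subunit of the CCR4-NOT complex that shortens mRNA poly(A) tails, with control MEFs, to ask which mRNAs persist without it. CNOT3-depleted MEFs (CNOT3KD, genotype label CNOT3 knock down) were infected with Cre-expressing retrovirus and control MEFs (genotype label wild type) with a control virus. The study describes both as CNOT3 loxP/loxP cells from mice with a floxed allele. Both were selected in puromycin, so the control cells share the floxed allele, the infection and the selection. Both kinds of MEFs were sampled untreated (0 h) and after 6 and 12 h of actinomycin D (Act. D), an inhibitor of transcription, so that mRNA levels under it follow decay. CNOT3KD MEFs were a selected population and not a clone, and the sources used here give no count of animals behind it.

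There was 1 array per condition, so no difference below has a replicate check, no test was run, and precision is limited by how few arrays there are. The signals are Affymetrix MAS5 values in arbitrary units, scaled by the authors to nearly the same trimmed mean, 494 to 497 over the 6 arrays. A percentage left under Act. D is therefore relative to the mRNA that remained, and can exceed 100%. The 25th percentile of an array lay between 13.6 and 19.8, and signals under it were taken as near background. Cnot3 itself had a signal of 240 in CNOT3KD MEFs and 436 in control MEFs at 0 h, 1.82-fold lower in CNOT3KD MEFs, at its brighter probe set, and 227 in CNOT3KD MEFs and 204 in control MEFs at the other. Whether they read the deleted part of the gene is unknown here. All 8 fibroblast markers were present and none differed more than 1.5-fold at 0 h.

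At 0 h the family was nearly level between the cultures at the brightest probe sets. Of the 29 genes, 0 were more than 1.5-fold higher in CNOT3KD MEFs, where 12.4% of the 11062 genes were, and 1 was more than 1.5-fold lower, where 6.77% were. The log2 fold, CNOT3KD over control, ran from -0.69 to 0.46 with a median of 0.03, beside a median of 0.08 for all genes at or above the median signal. Over all 32 genes the counts were 1 higher (Ube2u) and 2 lower (Ube2t and Ube2d2b), against 19.5% and 15.7% of all named genes. Ube2u and Ube2d2b were near background on all 6 arrays, so no fold is given for them. With the median of a gene's probe sets instead, dim ones included, 2 were higher (Ube2h and Ube2u). In that setting 6 were lower (Ube2t, Ube2s, Ube2k, Ube2v2, Ube2e3 and Ube2d2b). Of all 18193 named genes, 3571 were higher and 3255 lower there.

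At the brightest probe sets, the gene past the fold limit among the 29 was Ube2t. This E2 of the Fanconi anaemia pathway works with the ligase Fancl to mark Fancd2 at DNA crosslinks. Its signal at 0 h was 412 in CNOT3KD MEFs and 667 in control MEFs, 1.62-fold lower in CNOT3KD MEFs. Next came Ube2s, which extends ubiquitin chains for the anaphase-promoting complex in mitosis, with 4748 in CNOT3KD MEFs and 6988 in control MEFs, 1.47-fold lower, and it passed the limit after quantile normalization (log2 fold -0.60). At the other end Ube2b, a homologue of yeast Rad6, had 5934 in CNOT3KD MEFs and 4312 in control MEFs, 1.38-fold higher. Ube2t and Ube2b, at opposite ends, are both among the 6 genes for DNA damage and Lys63 chains, whose median log2 fold was -0.04. Of 13 proliferation genes measured, 7 were more than 1.5-fold lower in CNOT3KD MEFs and 0 higher, with a median log2 fold of -0.66. Of genes at or above the median signal 6.77% were lower, and of all named genes 15.7%. Mki67 had 2131 in CNOT3KD MEFs and 4237 in control MEFs. Fewer dividing cells and less of such an mRNA per cell cannot be told apart in these bulk samples, and their part in the Ube2t and Ube2s values was not tested.

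The promoters of these genes, the lowest pair at 0 h, are shown because both were lower in CNOT3KD MEFs, as were 7 proliferation genes. Each window is from RefSeq on GRCm38.p6 and runs from 250 bases before to 50 bases after the annotated start. Capitals mark CCAAT on either strand, a motif common in promoters of cell cycle genes.
Ube2t, chr1:134962315-134962614, + strand: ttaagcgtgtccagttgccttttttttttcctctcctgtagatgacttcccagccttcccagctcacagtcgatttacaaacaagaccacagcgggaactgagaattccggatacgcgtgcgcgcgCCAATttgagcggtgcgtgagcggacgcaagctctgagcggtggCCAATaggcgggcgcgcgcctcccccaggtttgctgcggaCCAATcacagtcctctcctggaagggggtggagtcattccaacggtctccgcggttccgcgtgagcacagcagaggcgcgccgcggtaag
Ube2s, chr7:4812291-4812590, - strand: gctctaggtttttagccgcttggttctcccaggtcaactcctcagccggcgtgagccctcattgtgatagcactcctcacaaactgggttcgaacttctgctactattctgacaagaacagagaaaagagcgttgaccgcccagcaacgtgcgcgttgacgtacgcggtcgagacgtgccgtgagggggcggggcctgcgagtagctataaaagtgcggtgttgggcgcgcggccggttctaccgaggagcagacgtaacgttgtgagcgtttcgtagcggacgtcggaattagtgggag

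The Ube2t window held CCAAT 3 times, each on the forward strand, and the Ube2s window 0 times. Another motif of cell cycle promoters, TTTGAA, was in neither window. CCAAT was in 37.4% of 32851 promoter windows and at least 3 times in 3.37% of them, and TTTGAA was in 17.9%. For 26 of the 32 genes the table held a window, 35 windows in all, of which 6 held CCAAT and 3 TTTGAA. A window of Ube2f also held CCAAT 3 times, and TTTGAA 1 time, while its log2 fold at 0 h was -0.0015. These are matches of letters only.

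Under Act. D the cultures separated. Stabilized genes were those with a log2 signal at 0 h, averaged over the cultures, no lower than the median, a CNOT3KD signal at 0 h between 0.5 and 2.0 times that at 6 h, and 2 or more times as large a fraction left in CNOT3KD as in control MEFs at 6 h and again at 12 h. Of the 29 genes, 6 met this rule (Ube2cbp, Ube2t, Ube2g1, Ube2j2, Ube2d2a and Ube2z), where 10.6% of genes at or above the median signal did, and 6.44% of all named genes. With CNOT3KD and control exchanged 0 met it, where 0.479% did. Stabilization, which divides the CNOT3KD fraction left by the control one and averages the log2 of this over 6 and 12 h, ran from -0.84 to 3.24. Its median was 0.36, beside 0.13 for all genes at or above the median signal, and it was above 0 for 19 of the 29, where 55.9% of genes were. Without Ube2cbp and the pseudogene, 5 of 27 genes were stabilized and the median stayed 0.36.

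The difference was larger at the later time. A ratio of 2 or more between the CNOT3KD and control fractions left was met by 6 of the 29 genes at 6 h, where 17.3% of genes met it, and by 10 at 12 h, where 25.8% did. The median log2 ratio was 0.12 at 6 h (0.09 for all genes) and 0.58 at 12 h (0.15 for all genes). In 25 of the 29 the ratio was higher at 12 h than at 6 h, where this held for 53.2% of genes. At 12 h the median signal left was 99.3% in CNOT3KD MEFs and 67.1% in control MEFs, against 95.1% in CNOT3KD MEFs and 72.8% in control MEFs for all genes. At 6 h, 0 of the 29 in CNOT3KD MEFs and 6 in control MEFs were at or under 50% of the 0 h signal, where 12.8% of genes in CNOT3KD MEFs and 28.2% in control MEFs were. At 12 h these were 1 gene in CNOT3KD MEFs and 11 in control MEFs, where 16.8% of genes in CNOT3KD MEFs and 38% in control MEFs were. Most of the family thus kept its signal in CNOT3KD MEFs, while in control MEFs it was spread widely. For 4 of the 29 the CNOT3KD signal was above and the control signal below its own 0 h value at both times, where 7.62% of genes showed this.

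**Figure D1:**
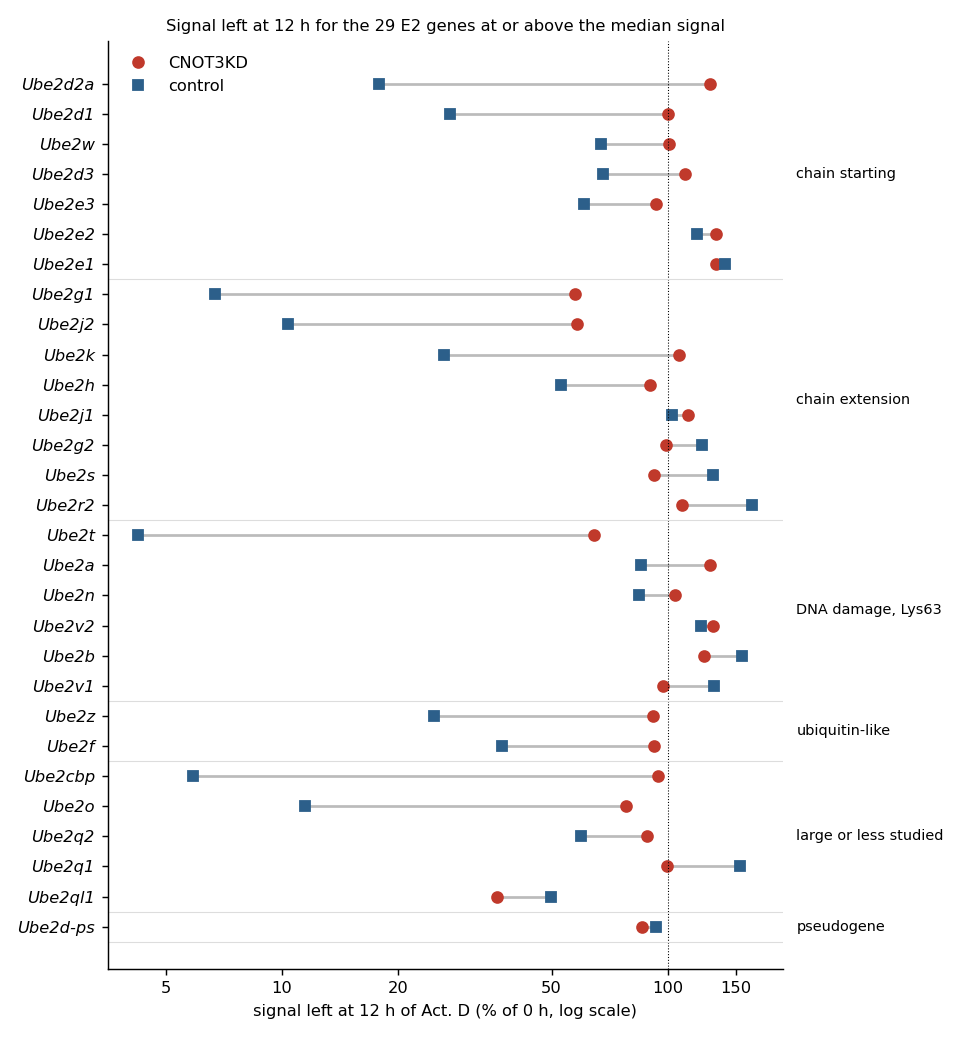
Signal left after 12 h of Act. D, in % of the 0 h signal on a log axis, for the 29 genes at or above the median signal, grouped by role and ordered by stabilization within each role, with CNOT3KD as circles and control as squares (1 array each). The CNOT3KD values spread from 36.2% for Ube2ql1 to 134% for Ube2e1, and the control values from 4.24% for Ube2t to 166% for Ube2r2.

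Ube2t had signals of 412, 333 and 266 at 0, 6 and 12 h in CNOT3KD MEFs, and of 667, 108 and 28.3 in control MEFs. The lower signal of CNOT3KD MEFs at 0 h became the higher one at 6 and 12 h. What was left at 12 h was 64.6% in CNOT3KD MEFs and 4.24% in control MEFs, a ratio of 15.2, and its stabilization of 3.12 had rank 91 among the 11062 genes. Among the 29 genes Ube2t had the lowest log2 fold at 0 h and, after Ube2cbp, the highest stabilization. Both measures use the same 0 h signals, and a lower fold at 0 h by itself raises stabilization. In the proliferation list 5 of 13 genes were stabilized as well, where 10.6% of genes at or above the median signal were. The median of the list was 0.96, with Plk1 (3.02), Ccna2 (2.72) and Aurka (2.72) highest. Mki67 (-0.16), Bub1 (-0.07) and Rrm2 (-0.05) lay below 0.

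Ube2g1 encodes an E2 that builds degradation chains and is known for its work with cullin ligases. Its signals at 0, 6 and 12 h were 3837, 2721 and 2213 in CNOT3KD MEFs, and 3189, 467 and 214 in control MEFs. At 6 h CNOT3KD MEFs kept 70.9% and control MEFs 14.6%. Ube2j2, a membrane-anchored E2 of degradation at the endoplasmic reticulum, had a like course of 2832, 1952 and 1649 in CNOT3KD MEFs, and of 2557, 504 and 265 in control MEFs. Both also lost signal in CNOT3KD MEFs, to 57.7% of 0 h for Ube2g1 and 58.2% for Ube2j2 at 12 h. Stabilization was 2.69 for Ube2g1 and 2.15 for Ube2j2.

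Ube2d2a, an E2 that starts chains with very many ligases, went the other way in CNOT3KD MEFs. Its signals at 0, 6 and 12 h were 7345, 9171 and 9481 in CNOT3KD MEFs, and 9493, 4679 and 1697 in control MEFs. The signal left at 12 h was 129% in CNOT3KD MEFs and 17.9% in control MEFs, with a stabilization of 2.10. Ube2z, an E2 charged by the activating enzyme Uba6, held level in CNOT3KD MEFs at 2126, 2175 and 1949, against 1947, 955 and 483 in control MEFs. It lay just inside the rule, with a ratio of the fractions left of 2.09 at 6 h and 3.69 at 12 h, and missed it after quantile normalization (stabilization 1.11) or scaling to array medians (1.52). Its E1, Uba6, had 94.2% left at 12 h in CNOT3KD MEFs and 44.4% in control MEFs.

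Ube2cbp had 181, 174 and 170 at 0, 6 and 12 h in CNOT3KD MEFs, and 177, 30.5 and 10.4 in control MEFs. The last control signal was near background, so that at most 10.2% was left in control MEFs at 12 h, against 94.2% in CNOT3KD MEFs, and the ratio was at least 9.27. With the signals as measured its stabilization was 3.24, and with the control signal at the 25th percentile of its array it was 2.85. Its signal was low throughout, and a single probe set reads it.

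**Figure D2:**
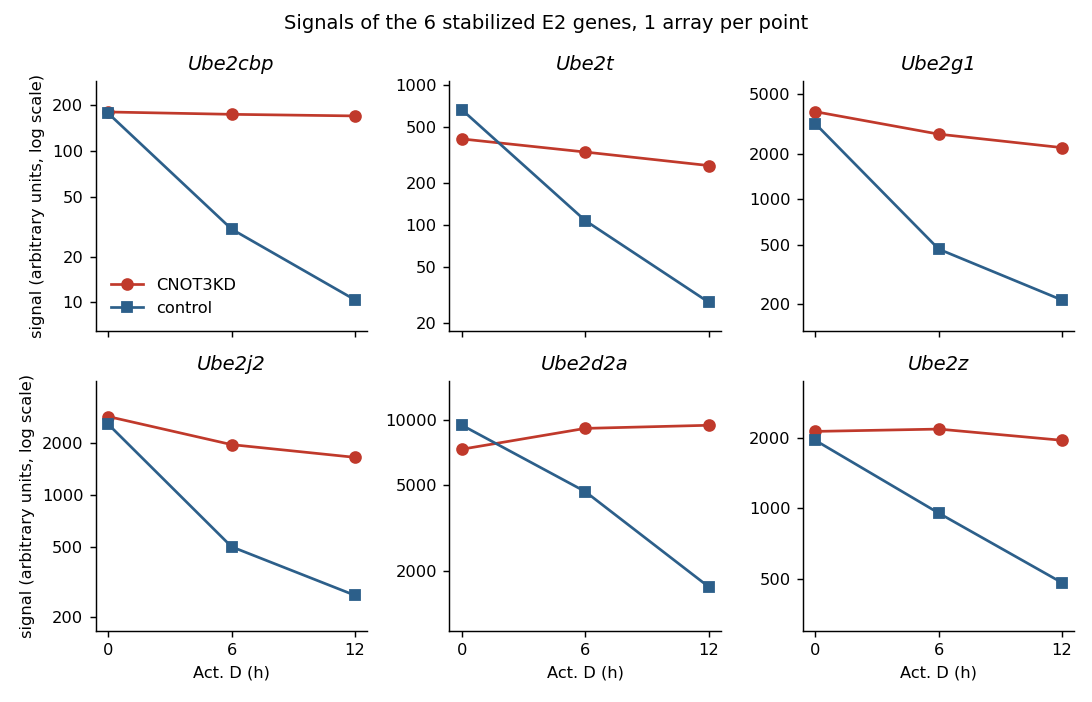
Signals of the 6 stabilized genes at 0, 6 and 12 h of Act. D on log axes, CNOT3KD as circles and control as squares, 1 array per point. In each panel the CNOT3KD signal is the higher one at 6 and 12 h, whereas at 0 h control was the higher one for Ube2t and Ube2d2a.

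Another set differed late. Ube2o, Ube2k, Ube2d1 and Ube2f passed a ratio of 2 at 12 h and not at 6 h. Ube2o, a large enzyme that joins E2 and E3 functions, had 290, 232 and 225 in CNOT3KD MEFs, and 296, 167 and 33.9 in control MEFs, with a ratio of 1.42 at 6 h and 6.78 at 12 h. Ube2k, which builds degradation chains and binds huntingtin, had 7036, 7986 and 7551 in CNOT3KD MEFs, and 6291, 4321 and 1659 in control MEFs. Ube2d1, a close relative of Ube2d2a, had 523, 555 and 524 in CNOT3KD MEFs, and 468, 273 and 128 in control MEFs. With ratios of 1.82 at 6 h and 3.67 at 12 h, Ube2d1 was the gene closest to the rule from outside. Ube2f, an E2 for the ubiquitin-like protein Nedd8, had 2502, 2461 and 2304 in CNOT3KD MEFs, and 2504, 1910 and 929 in control MEFs. The CNOT3KD signals of these genes changed little over 12 h, with 77.8% to 107% left, and the control signals fell to between 11.5% and 37.1%.

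At the low end of stabilization, control MEFs kept relatively more in the signals as the authors scaled them. Ube2ql1, a less studied relative of the Ube2q genes, had 103, 54.4 and 37.2 in CNOT3KD MEFs, and 86.0, 106 and 42.8 in control MEFs, and a stabilization of -0.84. It was the 1 gene whose CNOT3KD signal fell to under 50% at 12 h, and its ratio was under 0.5 at 6 h only. Ube2q1 had 1846, 1817 and 1843 in CNOT3KD MEFs, and 1552, 2017 and 2394 in control MEFs. Ube2r2, a relative of Cdc34 that serves cullin ligases, had 4275, 4317 and 4659 in CNOT3KD MEFs, and 3857, 4923 and 6394 in control MEFs. Ube2v1, a partner of Ube2n in building Lys63 chains, had 4849, 4155 and 4704 in CNOT3KD MEFs, and 4520, 5302 and 5945 in control MEFs. Ube2s had 4748, 4963 and 4366 in CNOT3KD MEFs, and 6988, 8841 and 9176 in control MEFs. In the last 4 genes the CNOT3KD signals stood at 92.0% to 109% of 0 h at 12 h, and the control signals at 131% to 166%. After scaling to ribosomal protein genes, stabilization was -0.34 for Ube2ql1 and -0.01 for Ube2q1. Under it Ube2r2 (0.03), Ube2v1 (0.05) and Ube2s (0.11) turned above 0, so the sign of their difference depended on the scaling. For Ube2s it also depended on the probe set, as given below. A ratio of 0.5 or less at 12 h was met by 0 of the 29, where 5.52% of genes met it.

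**Figure D3:**
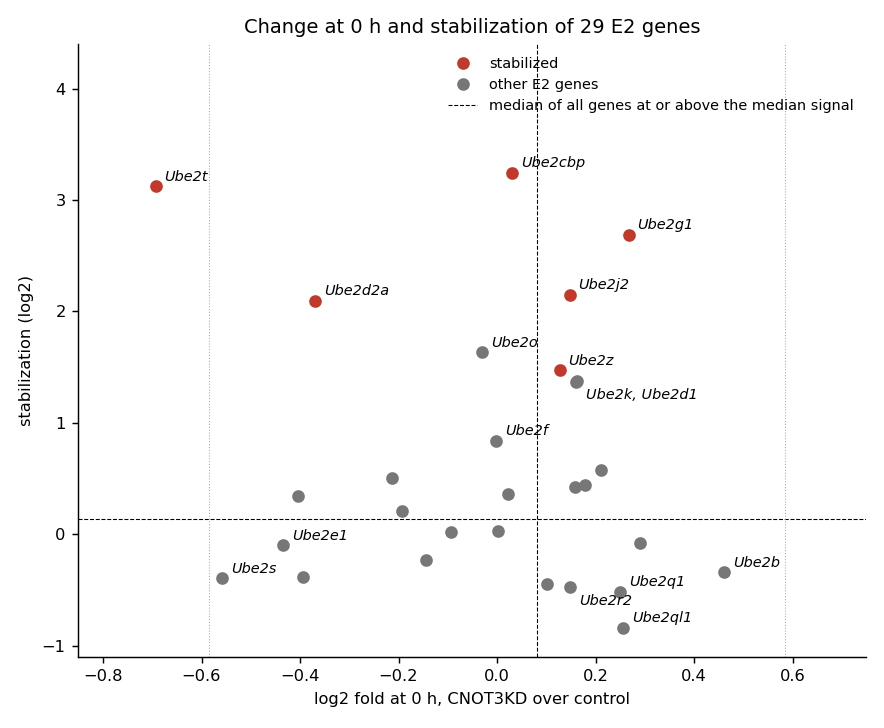
Log2 fold at 0 h (x axis, CNOT3KD over control, dotted lines at 1.5-fold) against stabilization (y axis, log2) for the 29 genes, both read from the same 0 h arrays. The 6 stabilized genes (red) lie at log2 folds from -0.69 to 0.27, and the dashed lines mark the medians of all genes at or above the median signal, 0.08 and 0.13.

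By role, the chain-starting E2s (Ube2d, Ube2e and Ube2w, 7 genes) had a median stabilization of 0.43, with Ube2d2a at 2.10 and Ube2e1 at -0.10 as its ends. The 8 chain-extending E2s had a median of 0.30 and ranged from Ube2g1 at 2.69 to Ube2r2 at -0.47. Of the 6 genes for DNA damage and Lys63 chains, Ube2t was at 3.12 and the others lay between -0.45 and 0.36 at their brightest probe sets. Those others are the Rad6 homologues Ube2a (0.36) and Ube2b (-0.34), Ube2n (0.21), which builds Lys63 chains, and its partners Ube2v1 (-0.45) and Ube2v2 (0.02). The other probe set of Ube2a gave 1.30, with 108% left at 12 h in CNOT3KD MEFs and 26.4% in control MEFs. Other probe sets of Ube2b at or above the median signal gave -0.43 and -1.76. For Ube2n the other probe set gave -0.52, and for Ube2v2 others at or above the median signal gave -0.25 and -0.93. The sign for these genes thus depended on the probe set. Of the E2s with ubiquitin-like or Uba6-linked work, Ube2z (1.47) had 24.8% and Ube2f (0.84) had 37.1% left in control MEFs at 12 h. Of the rest, Ube2h (0.57), Ube2q2 (0.51), Ube2w (0.44), Ube2d3 (0.43) and Ube2e3 (0.35) were above 0, Ube2j1 was at 0.03, and Ube2e2 (-0.08), Ube2g2 (-0.23) and the pseudogene Ube2d-ps (-0.38) were below it.

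Close relatives differed at their brightest probe sets, and most of these gaps depended on that choice. Of 11 pairs of paralogues, 4 differed by at least 1 log2 unit in stabilization. The widest gap, 2.92, was between Ube2g1 and Ube2g2. Ube2g2 had 1544, 1548 and 1534 in CNOT3KD MEFs, and 1707, 1914 and 2090 in control MEFs, so its control signal did not fall while that of Ube2g1 fell to 6.71%. Ube2j2 and Ube2j1, both anchored in the endoplasmic reticulum, differed by 2.12. Ube2j1 had 1810, 2017 and 2043 in CNOT3KD MEFs, and 1807, 2126 and 1860 in control MEFs. Its other usable probe set gave a stabilization of 1.01, with 130% left at 12 h in CNOT3KD MEFs and 43.3% in control MEFs.

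Ube2d2a and Ube2d3 differed by 1.67. Ube2d3 had 14455, 16339 and 16028 in CNOT3KD MEFs, and 12961, 13198 and 8815 in control MEFs, so its control signal fell late and less far at this probe set. At another one Ube2d3 had 4750, 3879 and 3265 in CNOT3KD MEFs, and 5169, 2163 and 1003 in control MEFs, a stabilization of 1.39. Between Ube2q2 and Ube2q1 the gap was 1.02. Ube2q2 had 906, 960 and 803 in CNOT3KD MEFs, and 1050, 821 and 626 in control MEFs. With the median of each gene's probe sets in place of the brightest, the gap was 2.21 for Ube2g1 over Ube2g2, 0.80 for Ube2q2 over Ube2q1 and 0.08 for Ube2j2 over Ube2j1, and the order of Ube2d2a and Ube2d3 turned round (-0.46). The remaining 7 pairs differed at the brightest probe sets by 0.02 (Ube2e2 and Ube2e1) to 0.94 (Ube2d1 and Ube2d3). With the median of probe sets, gaps were 2.89 for Ube2e3 over Ube2e1, 2.60 for Ube2e3 over Ube2e2 and 1.93 for Ube2a over Ube2b. The Ube2e3 gaps drew on a probe set under the median signal. Other gaps were 0.29 (Ube2e2 over Ube2e1), -0.03 (Ube2d1 over Ube2d3), -0.30 (Ube2v2 over Ube2v1) and -0.43 (Ube2d2a over Ube2d1). In the Ube2d pairs the probe sets of near-identical transcripts can share signal.

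Other probe sets gave a check on these values. The 32 genes had 80 probe sets, and 20 genes had more than 1 that was at or above the median signal and above background on every array. Of 34 such other probe sets, 29 gave a stabilization of the same sign as the brightest one. The spread within a gene had a median of 0.83 and reached 3.10 for Ube2j2, whose other probe set had 164, 106 and 102 in CNOT3KD MEFs, and 191, 206 and 267 in control MEFs, a stabilization of -0.95. Thus the Ube2j2 call rests on its brighter probe set. Ube2g1 was stabilized at both of its probe sets (2.69 and 1.43), and Ube2d2a was positive at all 4 usable ones (0.91 to 2.10), with the rule met at 2. The other usable probe set of Ube2z gave 0.61 and did not meet the rule. A further probe set of Ube2t, under the median signal, gave -0.82. The brightest probe sets of 3 genes, Ube2f, Ube2v1 and Ube2s, carry a platform suffix for probes shared between transcripts. Without such probe sets stabilization was 1.34 for Ube2f, -0.14 for Ube2v1 and 0.18 for Ube2s. That value of Ube2s came from a probe set under the median signal. When each gene was given the median of its probe sets, dim ones included, Ube2t (1.15), Ube2d2a (0.94), Ube2z (0.61) and Ube2j2 (0.60) no longer met the rule.

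**Figure D4:**
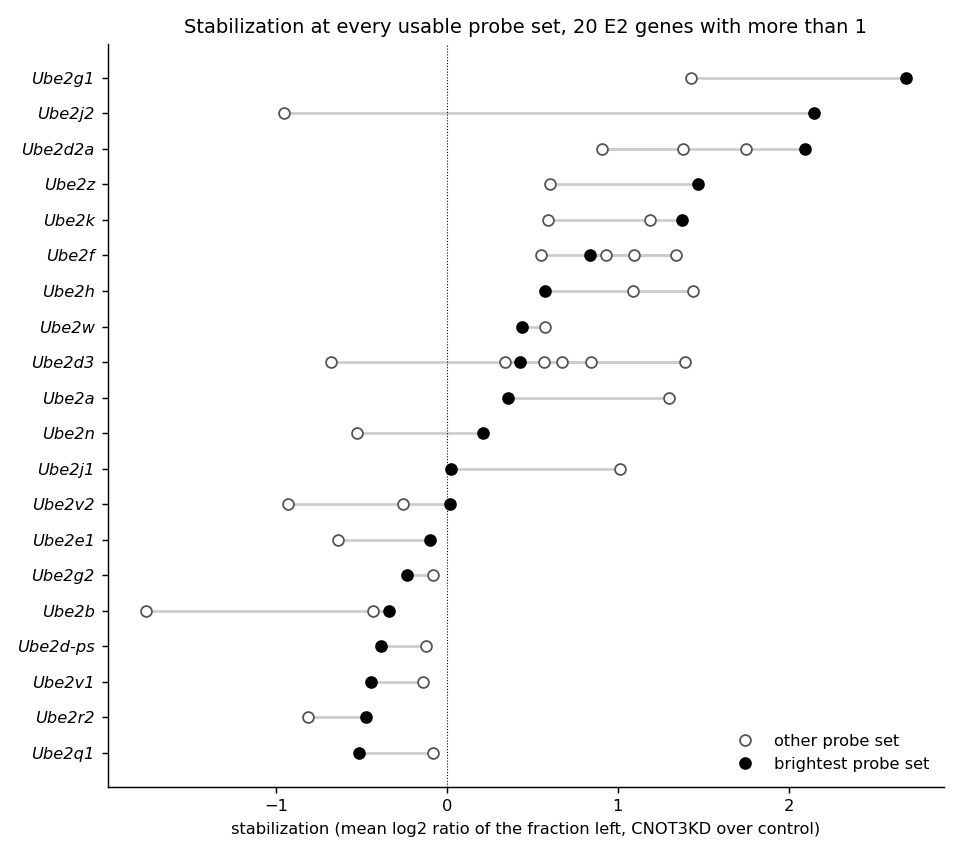
Stabilization (x axis, log2) at every usable probe set of the 20 genes with more than 1, with the brightest filled and the others open. Ube2j2 has its probe sets at 2.15 and -0.95, the widest spread, and Ube2g1 at 2.69 and 1.43.

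The partners of the E2s differed by class. The 6 E1 subunits measured had 0 stabilized genes and a median stabilization of -0.05, and at 0 h Atg7 and Uba7 were more than 1.5-fold higher in CNOT3KD MEFs. Uba7, the E1 for Isg15, had 137 in CNOT3KD MEFs and 90.4 in control MEFs at 0 h. Nae1, a subunit of the E1 for Nedd8, was the highest of them at 1.16, and Uba3, its other subunit, was at 0.12. Of the ubiquitin-like proteins Nedd8, Sumo3, Ufm1 and Urm1, 0 of 4 were stabilized and the median was -0.57. Nedd8 had 6824, 7882 and 8425 in CNOT3KD MEFs, and 7613, 12259 and 14707 in control MEFs. E2-type proteins outside the symbol, 8 genes, had 0 stabilized and a median of -0.16, with Birc6, a very large E2 that restrains apoptosis, highest at 1.02.

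Ligases and deubiquitinases stood higher. The list of RING and RBR ligases that work with E2s, 30 genes, also holds cullins, which are ligase scaffolds, and the SUMO ligase Ranbp2. Of the 30, 7 were stabilized (Rnf4, Cul1, Rnf168, Cul3, Rad18, Ubr2 and Arih2), and the median of the list was 0.88. Cul1, the scaffold of the SCF ligase, had 3038, 2556 and 2673 in CNOT3KD MEFs, and 2779, 892 and 155 in control MEFs. Rnf4, a ligase that reads SUMO chains, had a stabilization of 3.26. Fancl, the ligase of Ube2t, had 91.0% left in CNOT3KD MEFs and 57.4% in control MEFs at 12 h, a stabilization of 0.54. Of 18 HECT ligases 1 was stabilized, Herc4 (2.17), with a median of 0.37. Of 19 deubiquitinases, which remove ubiquitin or a relative of it, 5 were stabilized (Usp18, Bap1, Usp1, Usp7 and Senp6), with a median of 0.94, and the control signals of Usp18 under Act. D were near background. Usp1, which removes the ubiquitin that Ube2t places, had 3486, 3275 and 2645 in CNOT3KD MEFs, and 5277, 2125 and 1196 in control MEFs. The stabilized share of all genes at or above the median signal was 10.6%, as given above, and nothing particular to any of these lists is drawn from the counts.

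**Figure D5:**
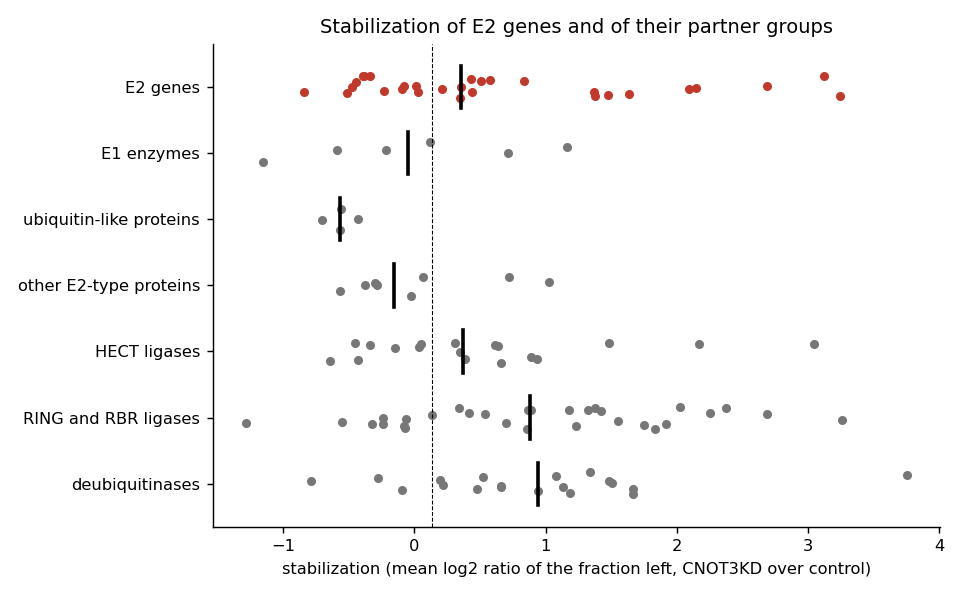
Stabilization (x axis, log2) of the 29 Ube2 genes and of the genes of 6 partner groups, 1 point per gene, with a thick bar at the median of each group and the dashed line at 0.13, the median of all genes at or above the median signal. The medians run from -0.57 for ubiquitin-like proteins to 0.94 for deubiquitinases, with the Ube2 genes at 0.36.

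Ube2l6 is the E2 for Isg15, a ubiquitin-like protein induced by interferon. Its signals at 0, 6 and 12 h were 70.8, 141 and 141 in CNOT3KD MEFs, and 57.9, 89.9 and 146 in control MEFs, just under the median signal at 0 h. The log2 fold at 0 h was 0.29. In the list of Isg15 and interferon genes, all 9 measured were more than 1.5-fold higher in CNOT3KD MEFs at 0 h (median log2 fold 1.77). Of genes at or above the median signal 12.4% were, and of all named genes 19.5%. Usp18, which removes Isg15, had 633 in CNOT3KD MEFs and 43.7 in control MEFs, and Herc6, a mouse ligase for Isg15, had 388 in CNOT3KD MEFs and 145 in control MEFs. The E2 of this pathway was thus 1.22-fold higher at its 1 probe set, inside the 1.5-fold limit. Its E1, Uba7, was just past that limit at 1.52-fold, and the ligase Herc6 (2.68-fold) and the protease Usp18 (14.5-fold) were further past it.

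Markers of other cell types were measured beside these values. Of 8 macrophage and leukocyte markers, 2 (Itgam and Aif1) were near background in both cultures at 0 h, 2 (Cd68 and Cd14) were more than 1.5-fold higher in CNOT3KD MEFs and 4 were within 1.5-fold, and their summed signal at 0 h was 3248 in CNOT3KD MEFs and 2232 in control MEFs. Of 6 epithelial markers, Krt8 and Krt18 were more than 1.5-fold higher in CNOT3KD MEFs, and Cdh1 and Krt14 passed this limit only through control signals near background, with a summed signal of 1270 in CNOT3KD MEFs and 701 in control MEFs, most of it from Krt18 (862 in CNOT3KD MEFs and 419 in control MEFs). The summed signal of the 8 fibroblast markers was 134562 in CNOT3KD MEFs and 128030 in control MEFs. Whether other cells take part in the values of the Ube2 genes was not tested.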

How the data were processed

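Total RNA of 6 MEF samples, CNOT3KD and control at 0, 6 and 12 h of Act. D, was hybridised to Affymetrix mouse arrays with 45037 probe sets in the values used here. The deposited values are linear MAS5 signal intensities, which the authors scaled to a common level per array. No MAS5 version is stated in the sources. Values below 1 were raised to 1, with no rescaling beyond that of the authors.

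Probe sets were named from the platform annotation, of which 34945 list 1 gene symbol, 932 several and 9160 none. Probe sets with several symbols, such as those of Ube2l3, named no gene. The brightest probe set, by log2 signal averaged over the arrays, stood for each gene. All 32 genes matched RefSeq gene identifiers. Fold at 0 h, fraction left, stabilization and the stabilized rule are as defined in the report. The members and gene lists were chosen with earlier results of these data known, so their counts are descriptions. The lists hold E1 enzymes, ubiquitin-like proteins, E2-type proteins outside the symbol, HECT ligases, RING and RBR ligases with cullins and Ranbp2, and deubiquitinases. They also hold interferon and proliferation genes, and markers of 6 cell types.

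All 6 signals are printed for genes that met the stabilized or exchanged rule, passed 1.5-fold at 0 h, had the 5 highest or 5 lowest stabilizations, or belonged to a paralogue pair differing by at least 1. The other genes with 6 signals, Ube2o, Ube2k, Ube2d1, Ube2f and Ube2l6 among them, and the other list genes named were chosen after their values were seen. Alternatives were quantile normalization, scaling to ribosomal protein genes or to the array median, log2(signal + 16), other probe set choices, the filter on low signals, stricter thresholds and each time alone. Computations used Python 3.11.15, numpy 2.4.6 and pandas 2.3.3, and the measures were tested on simulated data.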

Additional observations from a re-analysis of the deposited data

Results flagged for a closer look

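For 4 of the 29 genes the CNOT3KD signal was above its 0 h value at both times of Act. D and the control signal was below its 0 h value at both. They were Ube2d2a (stabilization 2.10), Ube2k (1.37), Ube2d1 (1.37) and Ube2w (0.44). The same held for 7.62% of the 11062 genes at or above the median signal. With 1 array per condition the difference was not tested. The rise in CNOT3KD MEFs was small for Ube2d1, at 106% of 0 h at 6 h and 100.2% at 12 h, and for Ube2w, at 104% and 100.5%, and larger for Ube2d2a, at 125% and 129%, and Ube2k, at 113% and 107%.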

How the results depend on the processing

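No paired analysis was possible because each condition has 1 array and the labels give no replicate numbers. For all 32 genes together, medians were 0.07 for the log2 fold at 0 h and 0.35 for stabilization. The median of all probe sets of a gene in place of the brightest gave 2 genes higher, 6 lower and 3 stabilized. The stabilized genes were Ube2cbp, Ube2e3 and Ube2g1, of which 2 were among the 6. The Ube2e3 call drew on a probe set under the median signal and near background on 2 arrays, and its brightest one gave 0.35. The median log2 fold was -0.031 and the median stabilization 0.51. In that setting 3571 of all 18193 named genes were higher and 3255 lower, and 9.44% of genes at or above the median signal were stabilized. With genes under the median signal left out of the counts at 0 h, 0 were higher and 1 lower, and with that filter lifted from the exchanged rule 1 gene met it, Ube2u. With log2(signal + 16) 1 was lower, Ube2t, and with a 2-fold limit 1 was lower, the near-background Ube2d2b. Among all 18193 named genes, 1859 were lower with log2(signal + 16) and 1599 with the 2-fold limit. A 3-fold limit on the fractions left kept 4 stabilized, without Ube2d2a and Ube2z, where 4.53% of genes at or above the median signal were. At 6 h alone the exchanged rule took in 1 gene, Ube2ql1, as it did 129 of the 11062 genes, and the median stabilization was 0.12. At 12 h alone 10 were stabilized, where 22.4% of genes at or above the median signal were, and the median was 0.58. Quantile normalization gave a median stabilization of 0.22 and scaling to 46 ribosomal protein genes 0.85. Ribosomal protein scaling moved the median of all named genes too, to 0.52 against 0.02, and among genes at or above the median signal the Ube2 genes were at 0.86 and all genes at 0.63. It gave 8 stabilized Ube2 genes, adding Ube2d1 and Ube2k, where 19.5% of genes at or above the median signal were stabilized. It also turned Ube2b (0.16), Ube2e1 (0.40), Ube2e2 (0.42), Ube2g2 (0.27) and Ube2d-ps (0.12) from below 0 to above it. Under 6 alternative scalings and probe set choices Ube2cbp and Ube2g1 were stabilized in all 6, Ube2d2a, Ube2j2 and Ube2t in 5 and Ube2z in 3. The cause of these changes was not tested. A lone array leaves the spread between cultures unknown, and signals near the 25th percentile of an array give bounds only.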

Other observations

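Markers of other cell types outside the report were mostly dim. At 0 h the summed signal of 4 endothelial markers was 223 in CNOT3KD MEFs and 217 in control MEFs, with Pecam1 near background in both. For 4 skeletal muscle markers it was 338 in CNOT3KD MEFs and 257 in control MEFs, with Actn2 near background in both. For 4 neural markers it was 1341 in CNOT3KD MEFs and 872 in control MEFs, most of it from Tubb3, which had 967 in CNOT3KD MEFs and 549 in control MEFs.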
